A study of Mus musculus with 3 samples.

Results

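The genes described here encode the lid of the proteasome, the multi-subunit protease that degrades ubiquitin-tagged proteins. They are Psmd14, which encodes POH1, and 7 further lid genes, Psmd3, Psmd6, Psmd7, Psmd8, Psmd11, Psmd12 and Psmd13. The 8 genes were listed by name, out of 21887 protein-coding genes that the RefSeq table of GRCm38.p6 places on the autosomes, X or Y. For each gene, all peaks with a summit in the gene or within 5 kb of it were taken. That gave 5 of 12175 peaks for MYC in vector cells, 9 of 22647 for MYC in POH1-Flag cells and 0 of 2936 for Flag in POH1-Flag cells.

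The lid caps the regulatory particle of the proteasome. POH1 is its deubiquitinase, a zinc metalloprotease of the JAMM family that cuts ubiquitin chains off a substrate as the substrate is drawn into the core. PSMD7 carries a related MPN domain without the metal site and forms a dimer with POH1, and the other 6 proteins are PCI-domain subunits that form the scaffold. MYC is a transcription factor that binds promoters of growth genes as a dimer with MAX, often at E-boxes. Genes of the proteasome are also known targets of the factors NFE2L1 and NFE2L2.

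The libraries were made by CUT&Tag, in which an antibody directs a transposase to a protein on chromatin and the DNA beside it is tagged for sequencing. All 3 came from Pan02, a mouse pancreatic ductal adenocarcinoma line. One group was Pan02 with the vector and an anti-MYC antibody, the other groups were Pan02 stably expressing POH1-Flag with an anti-MYC or an anti-Flag antibody. There was 1 library per group, so no difference between cell lines or antibodies could be tested, and intervals cover counting error only. The promoter of the POH1-Flag construct is not given in the sources used here, nor is whether the stable cells are 1 clone or a pool. RNA and protein of the lid genes were not measured in these libraries, so the peaks say nothing of how strongly each gene was expressed.

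Relative depth, read from the lowest background in each list, differed little, at 1.06 for MYC in POH1-Flag cells and 1.05 for Flag relative to MYC in vector cells. The median peak summit held 14 to 15 reads in each list. Marker genes of epithelial, acinar, T, macrophage and fibroblast cells, 16 in all, were searched for MYC summits within 1 kb of a gene end. Such peaks were found at 0 in vector cells and at 1, Cd68, in POH1-Flag cells. Over all protein-coding genes the shares were 28.2% and 40%, so the markers, the epithelial ones included, lay below them. Peaks at these genes therefore did not serve as a check of the labelled cell type.

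The RefSeq promoter table of GRCm38.p6 held 6 of the 8 genes, and Psmd3 and Psmd7 had no entry. Of the 6, the 250 bases before the transcription start are printed for 4 that span the patterns found: Psmd14 for the gene of POH1 itself, Psmd12 for the highest MYC pileup, Psmd13 for a promoter shared with a neighbour, and Psmd6 for the gene without any peak. Capitals mark the matches to 2 of the motifs searched, the E-box variant CACGCG (on the opposite strand, hence its complement) in Psmd14 and TGACNNNGC, the pattern of NFE2L1 and NFE2L2 sites (also on the opposite strand), in Psmd12. Each is written 5′ to 3′ along the gene.
Psmd14, chr2:61711444-61711693, plus strand: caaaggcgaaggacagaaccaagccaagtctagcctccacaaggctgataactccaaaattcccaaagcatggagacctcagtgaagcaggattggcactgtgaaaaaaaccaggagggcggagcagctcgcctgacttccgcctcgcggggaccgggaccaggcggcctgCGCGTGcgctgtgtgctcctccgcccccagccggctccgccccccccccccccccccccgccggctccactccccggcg
Psmd12, chr11:107479278-107479527, plus strand: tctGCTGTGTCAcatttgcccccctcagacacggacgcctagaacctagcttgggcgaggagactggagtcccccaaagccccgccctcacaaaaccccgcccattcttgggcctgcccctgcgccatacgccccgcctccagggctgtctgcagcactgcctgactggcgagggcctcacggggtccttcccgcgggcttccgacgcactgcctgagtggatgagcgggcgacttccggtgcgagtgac
Psmd13, chr7:140882144-140882393, plus strand: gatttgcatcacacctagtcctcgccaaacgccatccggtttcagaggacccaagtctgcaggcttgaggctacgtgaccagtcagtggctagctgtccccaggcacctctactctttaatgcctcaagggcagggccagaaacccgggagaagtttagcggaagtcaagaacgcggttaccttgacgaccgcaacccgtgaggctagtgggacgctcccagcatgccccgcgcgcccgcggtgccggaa
Psmd6, chr14:14120946-14121195, minus strand: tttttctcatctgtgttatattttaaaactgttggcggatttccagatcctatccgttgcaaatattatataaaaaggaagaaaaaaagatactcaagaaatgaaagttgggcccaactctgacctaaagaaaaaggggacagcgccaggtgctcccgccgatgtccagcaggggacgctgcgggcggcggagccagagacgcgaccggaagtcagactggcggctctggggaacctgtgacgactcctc

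In windows from 250 bases before to 50 after the start, 5 motifs were searched on both strands. They were the canonical E-box CACGTG, its variant CACGCG, the CCAAT box (the letters CCAAT), the GC-box core GGGCGG and the NFE2L1 and NFE2L2 pattern TGACNNNGC. CACGTG was found in 0 of the 6 lid promoters, against 7.15% of 32851 promoter windows in the table. CACGCG was in 1 of 6, at bases -79 to -74 of Psmd14, against 9.27% of all windows. CCAAT was likewise in Psmd14 alone, 3 times, with a match at -159 to -155 and overlapping matches at 5 to 9 and 8 to 12. Over all windows CCAAT was in 37.4%. GGGCGG was in 5 of 6, all but Psmd13, against 35.7% of all windows. TGACNNNGC was in 1 of 6, at -247 to -239 of Psmd12, against 12.4%. A match is a string of letters and not a bound site, and a missing match says only that the letters are not in this window.

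Base composition of the lid promoters lay at or above the median of all windows, which was 52.7% G and C with 7 CpG. Psmd12 had 66.3% and 20 CpG, Psmd14 had 65.3% and 22, Psmd11 had 61.7% and 26, and Psmd13 had 60.7% and 22. Psmd8 (53.7%, 15 CpG) and Psmd6 (53%, 16 CpG) had the lowest G and C content of the 6. Psmd8 had a start-site MYC peak in POH1-Flag cells and Psmd6 had none, so these similar values went with different outcomes. Over all windows, GGGCGG was held by 68.6% of the 10154 with a POH1-Flag MYC summit within 1 kb of the start and by 20.9% of the rest. For CACGTG these shares were 11.2% and 5.35%, and for CACGCG they were 20.1% and 4.43%.

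MYC peaks were listed at 4 of the 8 lid genes in vector cells (Psmd3, Psmd8, Psmd11 and Psmd12) and at 7 in POH1-Flag cells, all but Psmd6. Over all protein-coding genes the same rule gave 40.3% in vector cells and 55.6% in POH1-Flag cells. Psmd14, Psmd7 and Psmd13 had a MYC peak in POH1-Flag cells only, which makes 3 of the 4 lid genes without a vector peak, against 27.4% of all 13069 such genes. As a share of all genes, such genes made up 16.4%. Peaks were counted by position alone, and the Psmd13 summit lay closer to an end of the neighbouring gene Sirt3 than to Psmd13. No lid gene had a peak in vector cells only, a pattern seen at 1.1% of genes. The 2 MYC lists differ in length throughout, and no replicate exists against which the lid counts could be set.

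At the gene ends themselves the lid counts of the 2 MYC lists were further apart. With the summit required within 1 kb of either end of the gene, 2 lid genes had a MYC peak in vector cells, Psmd3 and Psmd12, against 28.2% of all genes, and the same 7 as before had one in POH1-Flag cells, against 40%. Psmd14, Psmd7, Psmd8, Psmd11 and Psmd13 were thus marked at an end in POH1-Flag cells only. They are 5 of the 6 lid genes without a vector peak there, against 17.2% of all such genes, and over all genes this pattern was seen at 12.4%. For Psmd8 and Psmd11 the vector peaks within 5 kb lay away from the start. The POH1-Flag MYC list is the longer one, with 22647 peaks against 12175. By p, the gene-end peaks of Psmd7 and Psmd11 ranked 12576 and 14184, so a list of 12175 peaks would hold neither. The share of all genes at gene ends was not computed at equal list length.

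**Figure D1:**
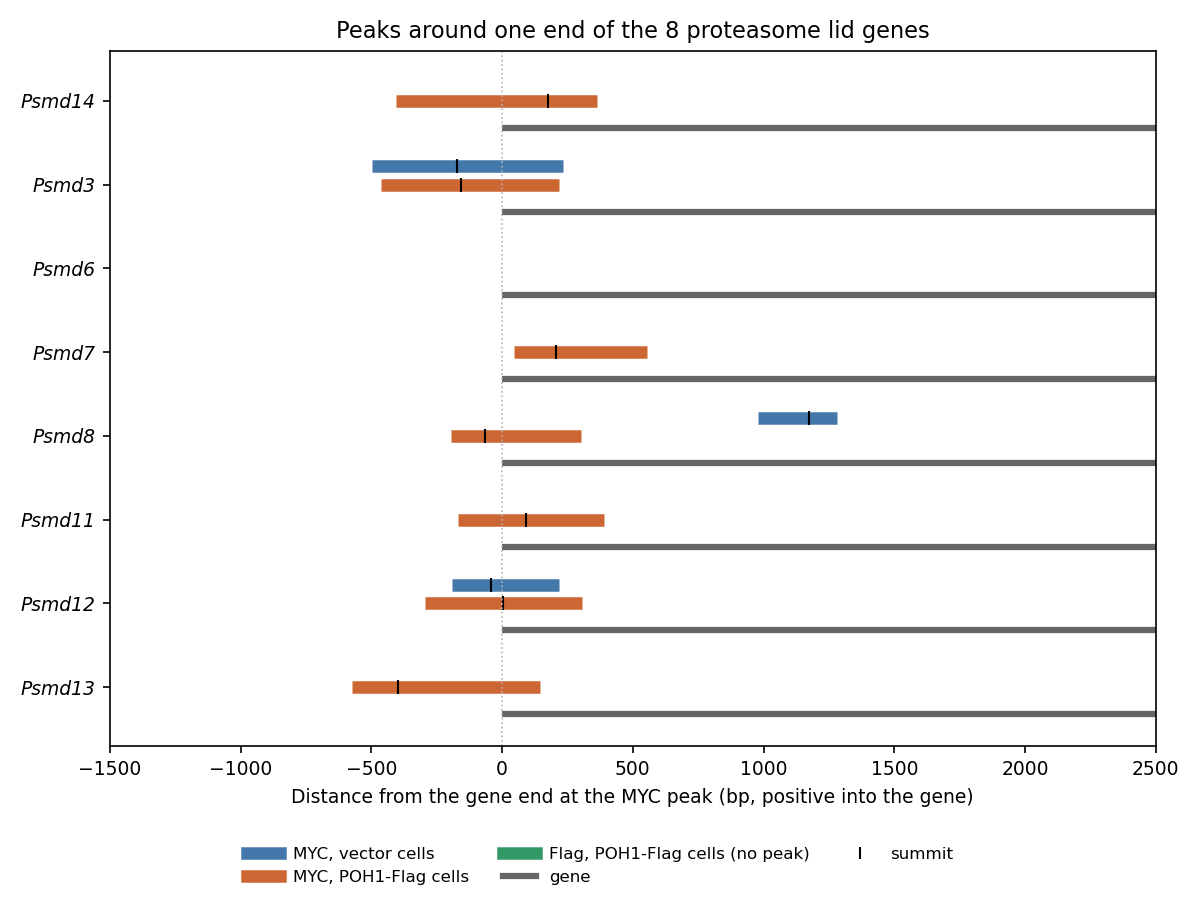
Peaks around 1 end of each lid gene. The x axis is the distance in bp from the gene end at the POH1-Flag MYC peak (for Psmd6, from its start), positive into the gene. Coloured bars are peaks, black ticks their summits and grey bars the gene. MYC peaks of POH1-Flag cells lie at this end in 7 genes, those of vector cells in Psmd3 and Psmd12, and the vector peak of Psmd8 lies 1172 bp inside the gene. Sites of Psmd8 and Psmd11 beyond the far end of the gene are outside the plot.

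Psmd14, the gene of POH1 (chromosome 2, 61711694 to 61800376, plus strand), had a single MYC peak, in POH1-Flag cells. The peak was 771 bp wide and spanned the transcription start, with its summit 177 bp downstream of it, inside the gene. The summit pileup, the number of reads stacked at the highest point, was 24 (Poisson 95% interval 15.4 to 35.7). The authors' fold enrichment was 7.17 and their −log10 q 12.7, rank 4100 of 22647 by p. In the vector MYC list the nearest summit lay 266 kb from the gene, and in the Flag list it lay 413 kb away. A vector summit there would have passed the lowest listed −log10 p from 10 reads, if the local background stood in the same relation to the genome-wide one. At the vector background the 24 reads correspond to 24.6. The same calculation for the Flag library gave 12 reads, and the limits given below for other lid genes rest on the same condition. It did not hold at the 4 lid-gene sites with overlapping peaks in both MYC lists. There the local background was 1.37 to 2.2 times the genome-wide one in vector cells and 2.27 to 3.32 times in POH1-Flag cells. The vector limits may therefore be too high. At the genome-wide background, 6 reads in the vector list and 7 in the Flag list were enough. The absence of a peak thus sets a limit on the signal in those libraries and does not show that it was 0.

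Psmd7, which encodes the partner of POH1 in the MPN dimer (chromosome 8, 107580380 to 107588482), also had its only peak in the MYC list of POH1-Flag cells. Its summit lay 208 bp inside the gene from the end with the higher coordinate, with 13 reads (6.92 to 22.2), a fold of 5.27 and a −log10 q of 5.58. The 508 bp peak stayed within the gene and did not reach that end. It ranked 12576 by p, so it is missing when the POH1-Flag list is limited to its 12175 strongest peaks, the length of the vector list. On the same condition as for Psmd14, a vector summit there would have been listed from 8 reads. The nearest Flag summit was 66.1 kb away and the nearest vector MYC summit 155 kb. Both genes of the catalytic dimer thus carried a listed MYC peak in POH1-Flag cells only, with counting intervals that overlap each other. The scaffold gene Psmd13 had the same pattern, as did 16.4% of all genes, so it is not particular to the dimer.

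Among the scaffold genes, Psmd12 (chromosome 11, 107479528 to 107498036, plus strand) had the highest POH1-Flag MYC pileup of the lid. It had 11 reads in vector cells (5.49 to 19.7) and 26 in POH1-Flag cells (17 to 38.1). The summits lay 44 bp upstream and 3 bp downstream of the start, 47 bp apart, and the whole vector peak of 412 bp fell inside the POH1-Flag peak of 599 bp. After each pileup was divided by its own library's genome-wide background, POH1-Flag over vector cells gave a ratio of 2.42, with an exact conditional Poisson 95% interval of 1.15 to 5.42. Of 6537 shared MYC sites, taken as the strongest of each gene, 94.7% had a lower ratio. Psmd12 was the 1 lid gene of 4 with an interval above 1, where 24.9% of 8357 genes with a shared site had one. Divided instead by the background at the summit, the ratio was 1.46 and its interval, 0.697 to 3.28, held 1.

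Psmd3 (chromosome 11, 98682554 to 98695978) was the other lid gene with a gene-end peak in both MYC lists. It had 16 reads in vector cells (9.15 to 26.0) and 24 in POH1-Flag cells (15.4 to 35.7), at summits 174 and 157 bp outside the end with the lower coordinate. The peaks were 734 and 683 bp wide. The ratio was 1.53 (0.782 to 3.09), so at this depth no difference could be detected, and with the background at the summit as the divisor the direction flipped, to 0.826 (0.421 to 1.66). That background was 1.66 times the genome-wide one in vector cells and 3.08 times in POH1-Flag cells. Psmd3 and Psmd12 were the lid genes with a listed gene-end MYC peak in vector cells.

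Psmd13 (chromosome 7, 140882394 to 140898642, plus strand) had its only peak in POH1-Flag MYC, with 22 reads (13.8 to 33.3), a fold of 6.07 and a −log10 q of 9.95. The summit lay 398 bp upstream of the Psmd13 start and 313 bp from an end of Sirt3, which encodes a mitochondrial deacetylase. The 720 bp peak spanned the Psmd13 start. As the summit was closer to Sirt3 than to Psmd13, it cannot be given to either gene. The nearest vector MYC summit, of 25 reads, lay 25.7 kb from the gene. On the same condition as for Psmd14, a vector summit at the promoter would have been listed from 11 reads.

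Psmd8, whose product is known as the last subunit to join the assembling lid (chromosome 7, 29174187 to 29180673, minus strand), had MYC peaks at different places in the 2 cell lines. In POH1-Flag cells a peak of 21 reads (13.0 to 32.1) lay across the start, with its summit 65 bp upstream and 794 bp from an end of Catsperg1. In vector cells there was instead a peak of 14 reads (7.65 to 23.5), 302 bp wide, 1172 bp downstream of the start inside the gene. These 2 peaks did not overlap. If each local background kept its relation to the genome-wide one, a start-site summit would have been listed in the vector library from 11 reads. An intragenic summit would then have been listed in the POH1-Flag MYC library from 8. At the shared lid-gene sites the local background stood higher over the genome-wide one in POH1-Flag cells than in vector cells. The limit of 8 may therefore be too low. Beyond the other end of Psmd8, 3845 and 3881 bp away, lay a site of both lists with 9 reads in vector cells (4.12 to 17.1) and 18 in POH1-Flag cells (10.7 to 28.4). Its ratio was 2.05 (0.873 to 5.17). It was 236 bp from an end of Spred3, a regulator of RAS and MAP kinase signalling, and so is no site of the Psmd8 promoter.

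Psmd11, known for raising the assembly of the full proteasome (chromosome 11, 80428615 to 80473248, plus strand), had a weak start-site peak in POH1-Flag MYC alone. The summit lay 93 bp downstream of the start with 13 reads (6.92 to 22.2), a fold of 4.80 and a −log10 q of 4.87, rank 14184 by p. On the same condition as for Psmd14, the vector library would have listed a summit there from 9 reads. A stronger site lay 3524 bp past the other end, 251 bp from an end of Cdk5r1, which encodes an activator of the kinase CDK5. That site had 15 reads in vector cells (8.40 to 24.7) and 22 in POH1-Flag cells (13.8 to 33.3), a ratio of 1.5 (0.744 to 3.11), or 0.90 with the background at the summit as the divisor. The vector summit there lay 3552 bp from the end of Psmd11, so the gene counts as marked in vector cells within 5 kb and not within 1 kb of an end.

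Psmd6 (chromosome 14, 14112185 to 14120945, minus strand) was the lid gene with no peak in any of the 3 lists within 5 kb, as were 42.8% of all genes. The nearest summit of POH1-Flag MYC lay 99.2 kb from the gene with 11 reads, that of vector MYC 313 kb and that of Flag 308 kb away. At the genome-wide background a summit needed 5 reads in the POH1-Flag MYC list, 6 in the vector list and 7 in the Flag list. More would have been needed where the local background was higher.

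**Figure D2:**
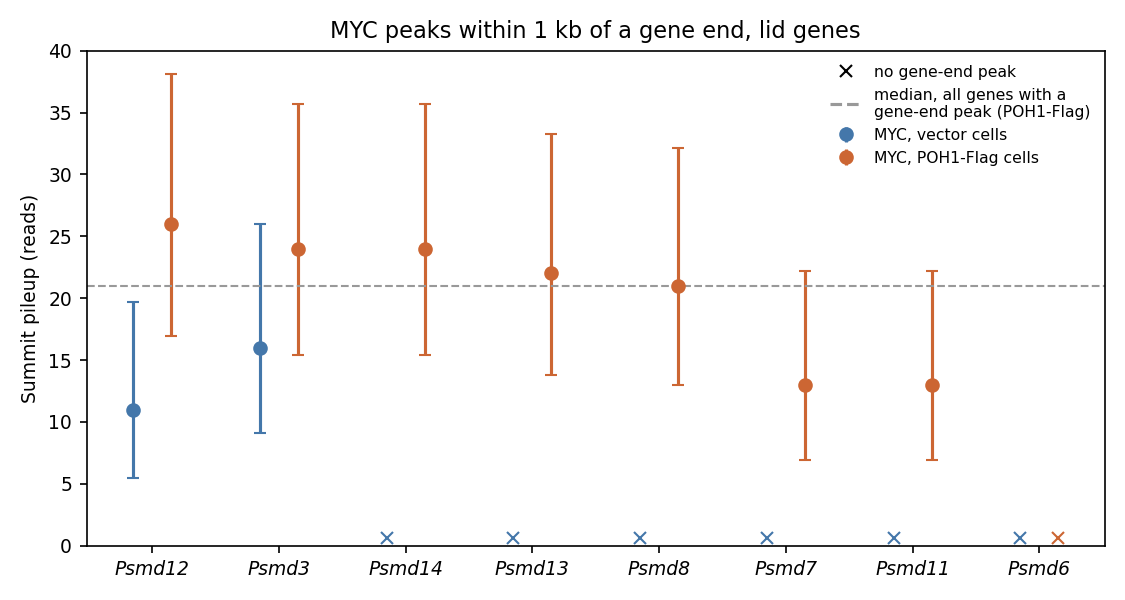
Summit pileups in reads (y axis) of MYC peaks within 1 kb of a gene end, by lid gene, 1 library per cell line. Bars are exact Poisson 95% intervals, crosses mark the lack of a listed peak (not a value of 0), and the dashed line is the median of 21 reads over all genes with such a peak in POH1-Flag cells. The 7 POH1-Flag pileups lie between 13 and 26 reads, and Psmd12 and Psmd3 alone have vector points.

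In the order of their gene-end pileups in POH1-Flag MYC, Psmd12 (26 reads) was followed by Psmd3 and Psmd14 (24 each), Psmd13 (22), Psmd8 (21), and Psmd7 and Psmd11 (13 each). No pair of neighbours in this order differed beyond counting error. The widest step, from Psmd8 to Psmd7, was a ratio of 1.62 (exact conditional interval 0.772 to 3.51), and even Psmd12 against Psmd11 gave 2 with an interval of 0.991 to 4.24. The lid median of 22 reads was close to the 21 of all 8755 genes with a gene-end peak, whose middle 50% ranged from 15 to 30. Their median width was 599 bp against 609 bp. Of all such genes 64.2% had a lower pileup than Psmd12, 58.2% a lower one than Psmd14 and 13.9% a lower one than Psmd7 and Psmd11. In vector cells the order of the strongest peak within 5 kb was Psmd3 (16), Psmd11 (15), Psmd8 (14) and Psmd12 (11), with the ends of this order at a ratio of 1.45 (0.634 to 3.47).

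At the 4 shared sites, those of Psmd12 and Psmd3 at the gene and those near Spred3 and Cdk5r1, the ratio of POH1-Flag to vector pileups was above 1, as it was for 96.1% of all genes with a shared site. The median log2 ratio was 0.83, a fold of 1.77, beside 0.70, a fold of 1.62, over all 6537 sites. With the background at the summit as the divisor, the median over all sites was 0.06, a shift of -0.64, and that of the 4 lid sites was 0.20, with Psmd12 and Psmd8 above 1 and Psmd3 and Psmd11 below it. Summits of the 2 lists lay 17 to 47 bp apart at these sites. That local background comes from the same library, and it was 1.37 to 2.2 times the genome-wide one at the 4 vector summits and 2.27 to 3.32 times at the 4 POH1-Flag summits. Its part in the ratios was not tested.

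**Figure D3:**
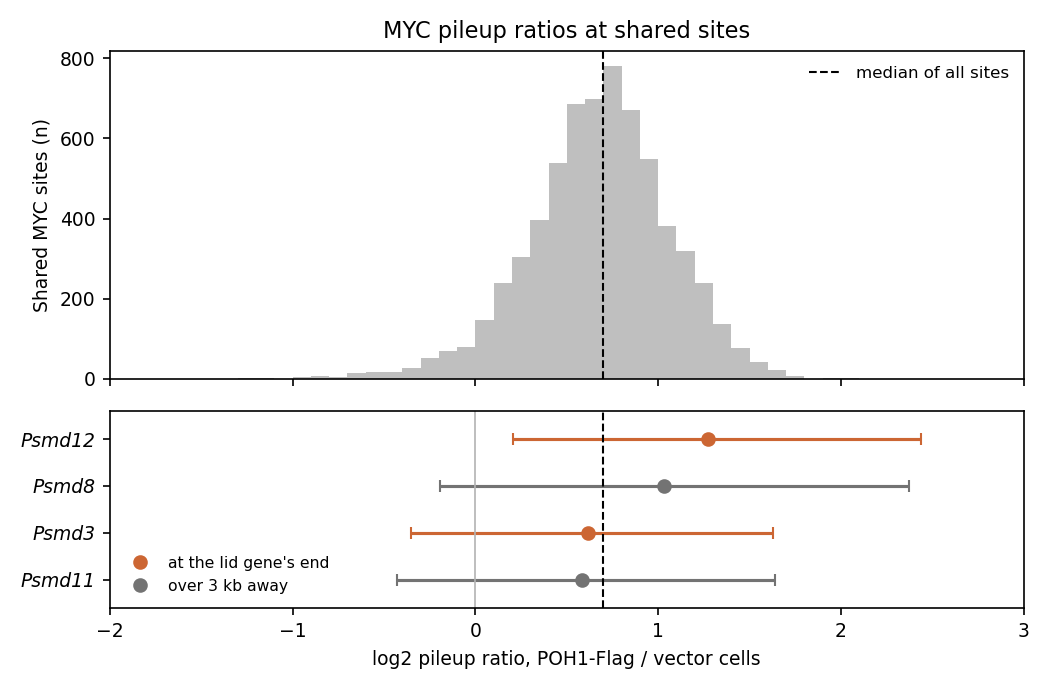
Log2 ratio of MYC pileups in POH1-Flag over vector cells at shared sites, each pileup divided by its library's genome-wide background. Top, number of sites per 0.1 bin over 6537 sites; bottom, the lid sites with exact conditional Poisson 95% intervals. The dashed line is the median of all sites, 0.70, and lies inside all 4 intervals, of which that of Psmd12 excludes 0.

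The Flag antibody, which recognises the tagged POH1 protein, gave no peak within 5 kb of any of the 8 lid genes, where 4.27% of all genes had one. Within 1 kb of a gene end Flag peaks were rare altogether, at 0.196% of genes. With the background of the POH1-Flag MYC summits carried over to the Flag library, 9 to 12 reads would have been needed for a listed Flag peak at the lid sites. At the genome-wide background of the Flag library, 7 reads would have been enough. Which of these backgrounds applied at the lid sites was not tested. The closest Flag summit to any lid gene was the one 66.1 kb from Psmd7, with 11 reads.

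Other genes of the proteasome came from lists given by subcomplex. Of 40 further subunit, activator and chaperone genes, 25 had a MYC peak within 5 kb in vector cells and 36 in POH1-Flag cells (40.3% and 55.6% of all genes), and 11 had one in POH1-Flag cells only (16.4% of all genes). At gene ends the numbers were 21 and 32, where all genes gave 28.2% and 40%. These gene-end shares of all genes also stand beside the list counts that follow. Pileups below are those of the strongest MYC site shared by both lists within 5 kb, vector cells first. The small subunit gene Sem1, the last lid gene, was marked in POH1-Flag cells only, with 12 reads. For the base, which unfolds substrates with its ATPases, 4 of 10 genes had a gene-end peak in vector cells and 10 in POH1-Flag cells. Its highest POH1-Flag pileups were at the ubiquitin receptor gene Adrm1 (19 and 31 reads in vector and POH1-Flag cells), the ATPase gene Psmc5 (14 and 27) and the scaffold gene Psmd1 (11 and 27). The core particle, which holds the protease sites, differed less between the lists, with 10 of 14 genes in vector cells and 11 in POH1-Flag cells. Psmb3 (26 and 36 reads), Psma3 (30 and 33) and Psma7 (14 and 33) were its strongest. Whether lid and core genes differ in this was not tested.

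Immunoproteasome and activator genes had gene-end peaks at 3 of 7 in both cell lines, a share near the 40% of all genes in POH1-Flag cells. These were the activator genes Psme2 (21 and 42 reads), Psme3 (25 and 39) and Psme4 (9 and 15). Assembly chaperones went from 4 of 8 in vector cells to 7 in POH1-Flag cells, led by Psmg4 (18 and 29), Psmd5 (10 and 26) and Psmg2 (16 and 25). Psmd5 and the immunoproteasome gene Psmb8 were the proteasome genes with a Flag peak within 5 kb, of 18 and 10 reads, neither of them near a gene end. That is 2 of the 40 genes, near the 4.27% of all genes. The proteasome regulators Nfe2l2 (36 and 53 reads), Nfe2l1 (24 and 41) and Ddi2, the protease that activates NFE2L1 (11 and 17), were marked at a gene end in both cell lines. So were 7 of 8 genes of proteasome-associated enzymes and shuttle factors, among them Ubqln4 (33 and 50 reads) and Rad23b (25 and 49).

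The complexes that share the PCI and MPN architecture of the lid are set beside it here as a description. COP9 signalosome genes had gene-end peaks at 6 of 9 in vector and 8 in POH1-Flag cells. Within 5 kb the highest were Cops7a, whose site lay away from its ends (41 and 54 reads), Cops7b (20 and 35) and Cops5, the JAMM protease of that complex (18 and 32). The PCI and MPN subunit genes of the translation factor eIF3 had them at 7 of 8 and 8 of 8, led by Eif3a (17 and 25 reads), Eif3k (15 and 25) and Eif3c (21 and 21). Of 5 further JAMM-family deubiquitinase genes, 0 had a gene-end MYC peak in vector cells and 3 had one in POH1-Flag cells. Mpnd (17 reads) and Brcc3 (12 reads) were among these, while Stambpl1 (15 and 22 reads) had a shared site away from its ends.

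**Figure D4:**
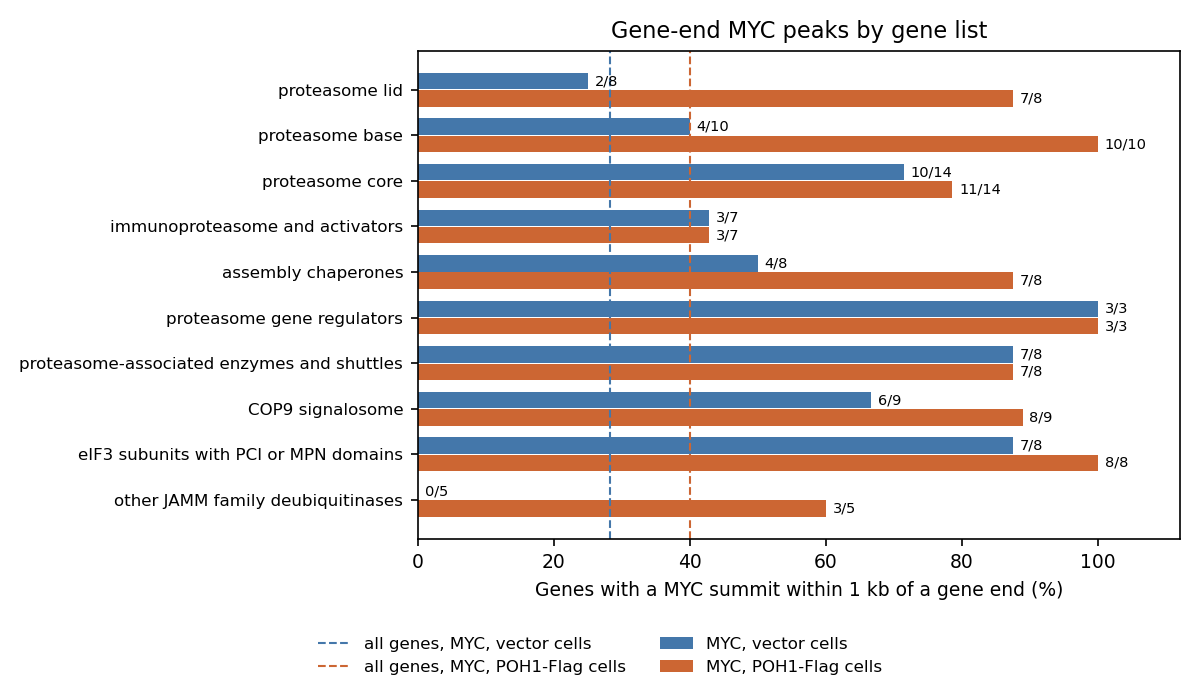
Share of genes with a MYC summit within 1 kb of a gene end (x axis, percent) by gene list, 1 library per cell line, with the number of genes beside each bar and the share of all genes as dashed lines. The lid goes from 2 of 8 genes in vector cells to 7 of 8 in POH1-Flag cells, and the core from 10 to 11 of 14.

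Psmd14 shared its pattern, a MYC peak in POH1-Flag cells and none in the other 2 lists within 5 kb, with 13 of the other 47 proteasome genes, against 15.6% of all genes. Likeness was measured as the difference in POH1-Flag MYC pileup, in 1 library. Closest to its 24 reads were Psmd13 (22), the ubiquitin receptor gene Psmd4 (21), the chaperone gene Psmd9 (20) and the ATPase gene Psmc3 (19), all with a gene-end peak. Of these, the Psmd13 peak cannot be given to Psmd13 rather than Sirt3.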

How the data were processed

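Peak lists of 3 CUT&Tag libraries were analysed, with the group of each taken from its sample title. Per the submitters' processing notes, the tools were MACS2 2.2.7.1, BWA 0.7.17-r1188, Trim Galore 0.6.6 and FastQC 0.11.9, on GRCm38/mm10. Nothing on parameters, a control or duplicate reads is given in the sources used here. The deposited lists have no header and follow the narrowPeak layout, 1 list per library. The authors' fold enrichment is a linear ratio of the summit to its background, and the −log10 p and −log10 q, also the authors', belong to that summit. The deposited score is the −log10 q times 10 as a whole number in nearly every peak and was not used further.

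The pileup k and background λ of each summit came from the fold, taken as (k + 1)/(λ + 1), together with the p, taken as the Poisson chance of more than k reads, with λ of at least 0.8. All peaks gave a whole k within 0.01 of a read. In a test on 3000 peaks drawn from the recovered POH1-Flag MYC values, the same equations were solved back and 100% were recovered. That test checks the arithmetic of the solution and not the equations themselves. The lowest λ of a list (0.845, 0.826 and 0.946 for vector MYC, POH1-Flag MYC and Flag) was taken as its genome-wide background. Relative depth is that value per bp of the smallest peak width. Ratios have exact conditional Poisson and pileups exact Poisson 95% intervals. PCR duplicates, if kept, would make them too narrow. Shared sites were mutually strongest overlapping peaks (at least 1 bp). The table of gene positions gives no strand, so distances are to the nearest gene end, or to the start of the promoter table where that holds the gene. No promoter peak sequence beyond that table was used. Python 3.11.15, SciPy 1.17.1 and pandas 2.3.3 were used.

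The lid genes and the other lists, 81 genes in all, each matched by symbol, were chosen with earlier results of these data known. All lid genes are named, with up to 3 genes per other list by POH1-Flag MYC pileup, those with a Flag peak, and the 4 proteasome genes closest to Psmd14. A gene chosen by this rule is left out of the text. Alternatives were other windows around the gene, stricter −log10 q and fold limits, other pileup scalings, and other overlap and site rules. Limiting the POH1-Flag list to the length of the vector list was added after seeing the data.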

Additional observations from a re-analysis of the deposited data

How the results depend on the processing

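Of 35 alternative values for the lid counts and the median ratio, 30 stayed within 1.5 times the count or within counting error. The number of lid genes with a vector MYC peak was 2 rather than 4 when the summit had to lie within 1 kb of a gene end, and the number found in POH1-Flag cells alone was 5 rather than 3. At a −log10 q of at least 10 these lists held 0 lid genes in vector cells and 4 in POH1-Flag cells (Psmd14, Psmd3, Psmd11 and Psmd12, of which Psmd11 through the site near Cdk5r1). All 4 then counted as found in POH1-Flag cells alone. Of the 3 genes of the main run in that class, only Psmd14 was kept, although the count itself stayed within the limit. With the background at the summit as the divisor the median log2 ratio went from 0.83 to 0.20, and the ratio reversed at Psmd3 (0.826) and Psmd11 (0.90); the cause was not tested. The other 18 of 20 single ratios kept their direction and stayed inside the interval of the value reported. The overlap and site rules picked the same sites as the main rule. Their values, counted in both totals, therefore only repeat the main ones. With the POH1-Flag MYC list limited to the length of the vector list, 6 lid genes had a peak and 2, Psmd14 and Psmd13, had it there only. Psmd11 was among the 6 through the site near Cdk5r1 alone, as its start-site peak ranked 14184 by p. The Psmd13 summit lay closer to an end of Sirt3 than to Psmd13. No share of all genes was computed for this shortened list or for the −log10 q limit. Whether the lid counts under these limits exceed that share is therefore not known. Flag counts stayed at 0 in each alternative run. This outcome was fixed in advance, since stricter limits only remove peaks and the closest Flag summit lay 66.1 kb from a lid gene. The Flag values are counted among the 30 and are no check of the result.

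No paired analysis was possible because each group has 1 library and the labels carry no replicate numbers, and for the same reason no library could be left out. Pileups of 9 to 26 reads limit what can be seen at a single gene. The counting interval of the ratio held 1 at Psmd3, Psmd8 and Psmd11, and at Psmd12 it held 1 with the background at the summit as the divisor (1.46, 0.697 to 3.28).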
